A study of Mus musculus with 4 samples.

Results

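The growth cone proteins and stathmins are 10 genes, *Gap43*, *Basp1*, *Marcks*, *Marcksl1*, *Stmn1*, *Stmn2*, *Stmn3*, *Stmn4*, *Chl1*, and *L1cam*, followed here in mouse sensory neurons after nerve injury. They were taken by their symbols from the gene lists of the deposited count matrices, which hold 31053 genes, and all 10 were found. The rule that takes them uses no measured value, but the genes were chosen with earlier results of these data known. Each of the 10 passed the filter on low counts in every comparison made over all neurons.

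GAP43, BASP1, MARCKS, and MARCKSL1 are proteins of the inner face of the plasma membrane that are enriched in growth cones, the motile tips of extending axons, where they bind acidic membrane lipids and act on the actin cytoskeleton. GAP43, MARCKS, and MARCKSL1 bind calmodulin and are substrates of protein kinase C. Stathmins bind tubulin dimers and favour the disassembly of microtubules. Stathmin 1 is cytosolic, while *Stmn2* (SCG10), *Stmn3* (SCLIP), and *Stmn4* (RB3) encode relatives that palmitoylation anchors to membranes. L1CAM and its close homolog CHL1 are cell adhesion molecules of the immunoglobulin superfamily that guide axons and link to the spectrin cytoskeleton through ankyrins. *Gap43* is a classical gene of the regeneration programme that sensory neurons switch on when their peripheral axon is cut.

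The data comprised 4 scRNA-seq libraries of GFP+ cells from L4-5 dorsal root ganglia (DRGs) of heterozygous PirtEGFPf mice on a C57BL/6 background, in which farnesylated EGFP stands in place of the *Pirt* reading frame, so that the sort took *Pirt*-expressing sensory neurons and left out neurons without it. The mice were 7 to 8 weeks old, all carried this allele, and were killed on day 7 after surgery on both sciatic nerves, either ligation as a chronic constriction injury (CCI) or a sham operation. There was a male and a female library of each surgery, Male-Sham and Female-Sham, then Male-CCI and Female-CCI, and series of 4 values follow this order. Each pooled 20 DRGs from 5 mice. Brothers and sisters of a litter were given one kind of surgery, so effects of litter and surgery cannot be told apart, and the spread between animals within a library was not measured.

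Sequence for the 250 bases before the annotated start was at hand for 5 of the 10 genes, *Basp1*, *Marcksl1*, *Stmn3*, *Chl1*, and *L1cam* (RefSeq, GRCm38.p6). The windows of *Basp1* and *Marcksl1* are shown because they lie directly before the annotated gene and both genes are among those higher in injured neurons below. *Basp1* is at high level in most sham neurons, while *Marcksl1* is near 0 in several classes. Each window is written 5′ to 3′ on the strand of its gene, in lower case throughout, since none of the motifs searched for was found in it. The window of *Basp1* (chr15:25413765-25414014, minus strand) is 78.8% G and C, and that of *Marcksl1* (chr4:129513331-129513580, plus strand) is 60.4%.
Basp1: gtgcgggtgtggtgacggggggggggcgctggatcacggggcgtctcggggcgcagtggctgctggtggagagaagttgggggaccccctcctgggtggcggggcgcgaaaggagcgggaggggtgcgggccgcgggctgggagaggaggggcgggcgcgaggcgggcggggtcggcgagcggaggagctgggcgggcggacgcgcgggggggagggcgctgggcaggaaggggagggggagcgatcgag
Marcksl1: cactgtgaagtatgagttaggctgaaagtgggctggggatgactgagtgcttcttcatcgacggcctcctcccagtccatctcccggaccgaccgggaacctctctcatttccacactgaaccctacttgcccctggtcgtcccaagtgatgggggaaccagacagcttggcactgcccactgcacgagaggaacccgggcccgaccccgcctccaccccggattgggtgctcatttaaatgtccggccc
The motifs, searched on both strands, were those of AP-1 (TGANTCA), of the cyclic AMP response element (TGACGTCA), and of STAT factors (TTCNNNGAA). They occur in 6.75%, 1.55%, and 7.02% of 32851 promoter windows of the same length, and in none of the windows of the 5 genes. This says only that these letters are not in these windows.

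By GENCODE (GRCm38), all 10 are protein-coding genes. *Gap43* lies on chromosome 16 (42248442 to 42340651, minus strand), *Basp1* on chromosome 15 (25363277 to 25413764, minus), *Marcks* on chromosome 10 (37133375 to 37138920, minus), and *Marcksl1* on chromosome 4 (129513581 to 129515985, plus). *Stmn1* lies on chromosome 4 (134468320 to 134473843, plus), *Stmn2* on chromosome 3 (8509360 to 8561606, plus), *Stmn3* on chromosome 2 (181306459 to 181314500, minus), and *Stmn4* on chromosome 14 (66344296 to 66361680, plus). *Chl1* lies on chromosome 6 (103510586 to 103750211, plus) and *L1cam* on chromosome X (73853778 to 73896105, minus). *L1cam* overlaps *Arhgap4* on its own strand, and *Chl1* overlaps short predicted genes on its own strand, so reads of these overlaps could be counted for either gene or left out.

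The libraries held 4019 to 8035 cells and 195684124 to 237069156 unique molecular identifiers (UMIs) as deposited. After removal of doublets and of cells with few genes or many mitochondrial UMIs, 2817 to 5398 neurons per library remained, with a median of 32490 to 56457 UMIs, and 112 to 190 satellite glial cell-like (SGC-like) cells. In finer clusters (resolution 1.2 in place of 0.8), 186, 145, 118, and 109 cells were SGC-like, and an immune-like cluster of 4, 5, 12, and 3 cells stood apart. Levels are given in CPM, a gene's UMIs scaled by the total UMIs summed over the neurons of a library or class, and 3 UMIs over all neurons of a library correspond to 0.0158 to 0.0188 CPM. The neuronal marker *Tubb3* was at 2451, 2570, 4688, and 4323 CPM in the neurons, and 6 SGC markers summed to 1337, 1654, 997, and 1173 CPM, less in CCI than in sham. *Sprr1a*, a gene of injured sensory neurons, marked 1.28% and 2.67% of sham neurons and 52.1% and 49.2% of CCI neurons, where *Sprr1a*+ means a normalized value (natural logarithm, 10000 UMIs per cell) above 1. Between 215 and 513 barcodes were shared by each pair of libraries, and only 34 of the 15715 cells kept had a barcode that another library's kept cells shared.

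In sham ganglia, levels of the 4 membrane-associated growth cone proteins, *Stmn4*, and *Chl1* differed widely between classes of sensory neurons, and those of *Stmn2*, *Stmn3*, and *L1cam* much less. Classes were named from marker genes fixed for this work and carry the ending "-like": non-peptidergic (NP1 to NP3), peptidergic (PEP1 to PEP5), large neurofilament-rich (NF1, NF2), and C-low threshold mechanoreceptor (cLTMR) neurons. The 10 genes were left out of the genes used for clustering. Because clusters are drawn on other genes of the same cells, levels across classes are given as a description, with no test. The ratio of the highest to the lowest of 10 class means was at least 10 for 6 of the 10 genes.

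*Gap43* had the widest range of the 10, from 1614 and 1595 CPM in NF2-like neurons of Male-Sham and Female-Sham to 8.62 and 7.94 CPM in cLTMR-like neurons, a ratio of 194. It was also low in NF1-like (16.2 and 22.7 CPM) and NP2-like neurons (37.3 and 39.3 CPM), and stood near 1000 CPM or more in PEP1- and PEP2-like neurons. Only 2 of the 9 neighbouring pairs in the order of classes overlapped between libraries, and both involved NP1-like neurons, where the sham libraries stood apart with 369.6 and 1196 CPM. *Basp1* kept to another pattern, with 1163 and 1111 CPM in NP2-like neurons, where *Gap43* was low, and between 914 and 1163 CPM in 7 classes. Low *Basp1* was shared by NF1-like (57.3 and 68.4 CPM), cLTMR-like (132 and 111 CPM), and NP1-like neurons (317 and 534 CPM).

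*Marcks* was highest in PEP2-like neurons (319 and 323 CPM) and lowest in NF1-like neurons (19.2 and 21.5 CPM), a ratio of 15.7, and it was at 225 and 222 CPM in cLTMR-like neurons, the class with the least *Gap43*. *Marcksl1*, its smaller relative, was highest in the same peptidergic classes, with 114 and 95.6 CPM in PEP3/4-like and 99.1 and 102 CPM in PEP2-like neurons. In NF1-like (0.309 and 1.07 CPM), NP2-like (0.768 and 1.02 CPM), and NP3-like neurons (1.52 and 1.33 CPM) *Marcksl1* rested on 4 to 30 UMIs per library and class. Of these, the NP2-like and NF1-like libraries overlapped, while the NP3-like and NP2-like ones did not.

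Among the stathmins, *Stmn2* differed by a ratio of 2.00 between NP3-like (4667 and 4532 CPM) and NF1-like neurons (2281 and 2323 CPM), and 6 of its 9 neighbouring pairs overlapped. *Stmn3* differed by a ratio of only 1.41, with its highest level in NF2-like (3389 and 3286 CPM) and its lowest in PEP2-like neurons (2355 and 2391 CPM). *Stmn1* was highest in PEP2-like (4325 and 4110.1 CPM) and lowest in NF1-like neurons (459 and 528 CPM). *Stmn4* had the widest range of the stathmins, a ratio of 91.1: it was at 152 and 156 CPM in PEP3/4-like neurons, 85.5 and 243 CPM in NP1-like neurons, and only 1.63 and 1.98 CPM in NP2-like and 1.68 and 2.75 CPM in cLTMR-like neurons.

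The adhesion molecules parted. *Chl1* spanned 127 and 121 CPM in NF2-like neurons to 1.44 and 1.90 CPM in NP3-like neurons, a ratio of 74.3, and it was also near 0 in NF1-like (2.09 and 2.33 CPM) and NP2-like neurons (3.94 and 3.85 CPM). *L1cam* was nearly even, from 204 and 201 CPM in PEP2-like to 149 and 141 CPM in cLTMR-like neurons, a ratio of 1.40. In a further neuronal cluster led by *Calb1* that no marker list named, *Basp1* was at 1122 CPM on average and *Gap43* at 397 CPM. Of the neurofilament-rich classes, NF2-like neurons had the most *Gap43* and *Chl1* of the 10 classes, and NF1-like neurons the second lowest mean of both.

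**Figure D1:**
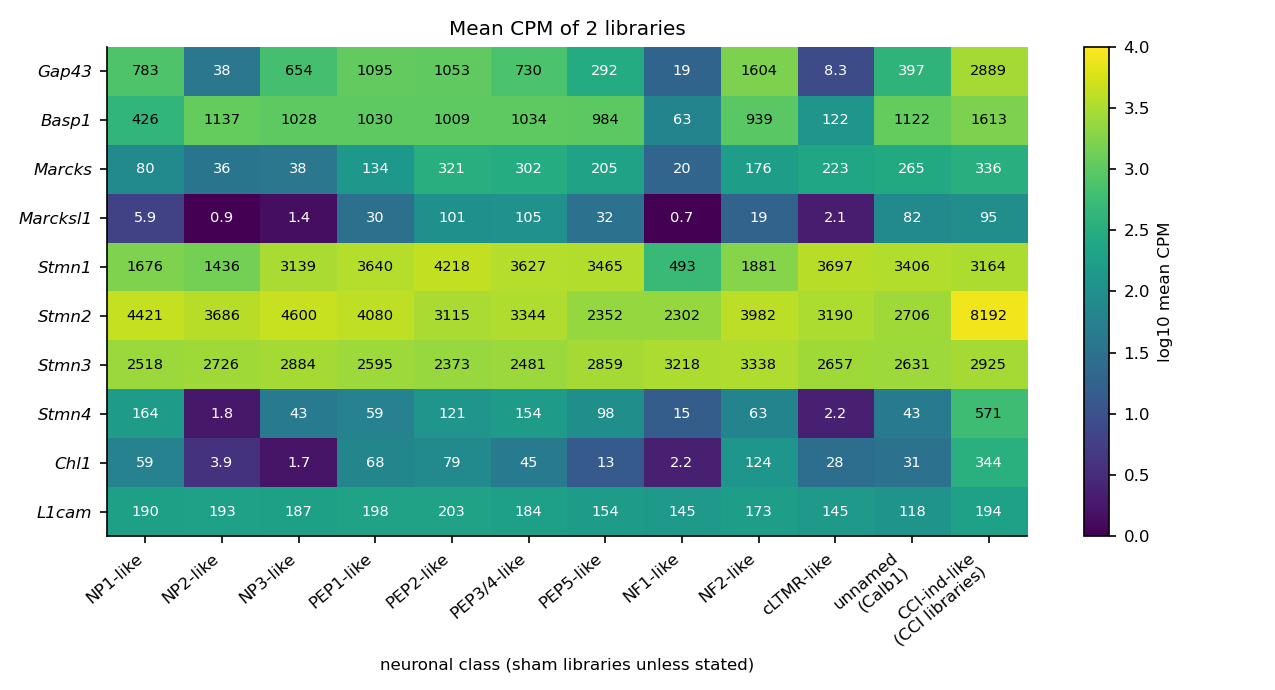
Mean CPM of the 10 genes in each neuronal class of the sham libraries, with CCI-ind-like neurons of the CCI libraries in the last column. Rows are genes, columns are classes, each cell prints the mean of 2 libraries, and the colour is its log10; *Gap43* is at 8.3 CPM in the column of cLTMR-like and at 1604 CPM in that of NF2-like neurons, while *Stmn3* and *L1cam* vary little along their rows.

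After CCI, 7 of the 10 genes rose over all neurons, all of the MARCKS and GAP43 group, *Stmn2* and *Stmn4* of the stathmins, and *Chl1* of the adhesion molecules. A gene was called when its adjusted p (Benjamini-Hochberg over all genes tested, edgeR quasi-likelihood test of 2 CCI against 2 sham libraries) was below 0.05 and its absolute log2 fold change above 0.5. By this rule 27.8% of 17232 genes tested were called, 15.2% as higher. The median log2 fold change was 0.73 over the 10 genes and -0.01 over all genes tested. These sums mix classes whose shares differ between surgeries, so a change within neurons and a change in the mix of neurons cannot be told apart in them.

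*Gap43* stood at 529 and 605 CPM in sham and 2076 and 2043 CPM in CCI neurons. The groups did not overlap, and the increase was 3.77-fold (log2 fold change 1.92 ± 0.07, SE, n = 2 libraries per surgery; edgeR adjusted p = 1.01e-05). *Basp1* rose from 866 and 840.2 to 1332 and 1276 CPM, a log2 fold change of 0.67 ± 0.05. *Marcks* rose from 151 and 179 to 255 and 243 CPM (0.65 ± 0.09), and *Marcksl1* from 34.7 and 37.2 to 61.1 and 59.1 CPM (0.80 ± 0.05). In each of these 3 genes both CCI libraries lay above both sham libraries. The increases of *Marcks* and *Marcksl1* were 0.41 and 0.45 when each cell was given the same weight, and then did not pass 0.5.

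The stathmins split into movers and non-movers. *Stmn4* had the larger relative increase, from 67.4 and 87.2 CPM in sham to 329 and 344 CPM in CCI, a log2 fold change of 2.18 ± 0.13 (edgeR adjusted p = 1.27e-04). *Stmn2*, which is needed for axon regrowth in several neuron types, rose from 3617 and 3493 CPM to 6540.2 and 6291 CPM (0.91 ± 0.04). *Stmn1* was at 2799 and 3029 CPM in sham and 2825 and 2989 CPM in CCI, with overlapping groups and a log2 fold change of 0.05 ± 0.06 whose sign turned when libraries were scaled by total UMIs alone. *Stmn3* was at 2712 and 2704 CPM in sham and 2868 and 2826 CPM in CCI (0.13 ± 0.04, edgeR adjusted p = 0.0338), a difference whose size did not pass the limit.

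*Chl1* had the largest fold change of the 10 genes in the sums of all neurons. It was at 36.7 and 43.3 CPM in sham and at 231 and 206 CPM in CCI neurons, 5.68-fold higher (log2 fold change 2.51 ± 0.10, edgeR adjusted p = 1.83e-05). *L1cam* was at 180.1 and 177 CPM in sham and 194 and 185 CPM in CCI (0.14 ± 0.05, edgeR adjusted p = 0.0490) and was not called. *Chl1* was also present in SGC-like cells, at 163, 119.6, 273, and 266 CPM, and the summed SGC markers in neurons were lower in CCI than in sham. With the 4 neuronal clusters that had over 1000 CPM of the glial gene *Fabp7* left out, 7 genes were called as before.

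**Figure D2:**
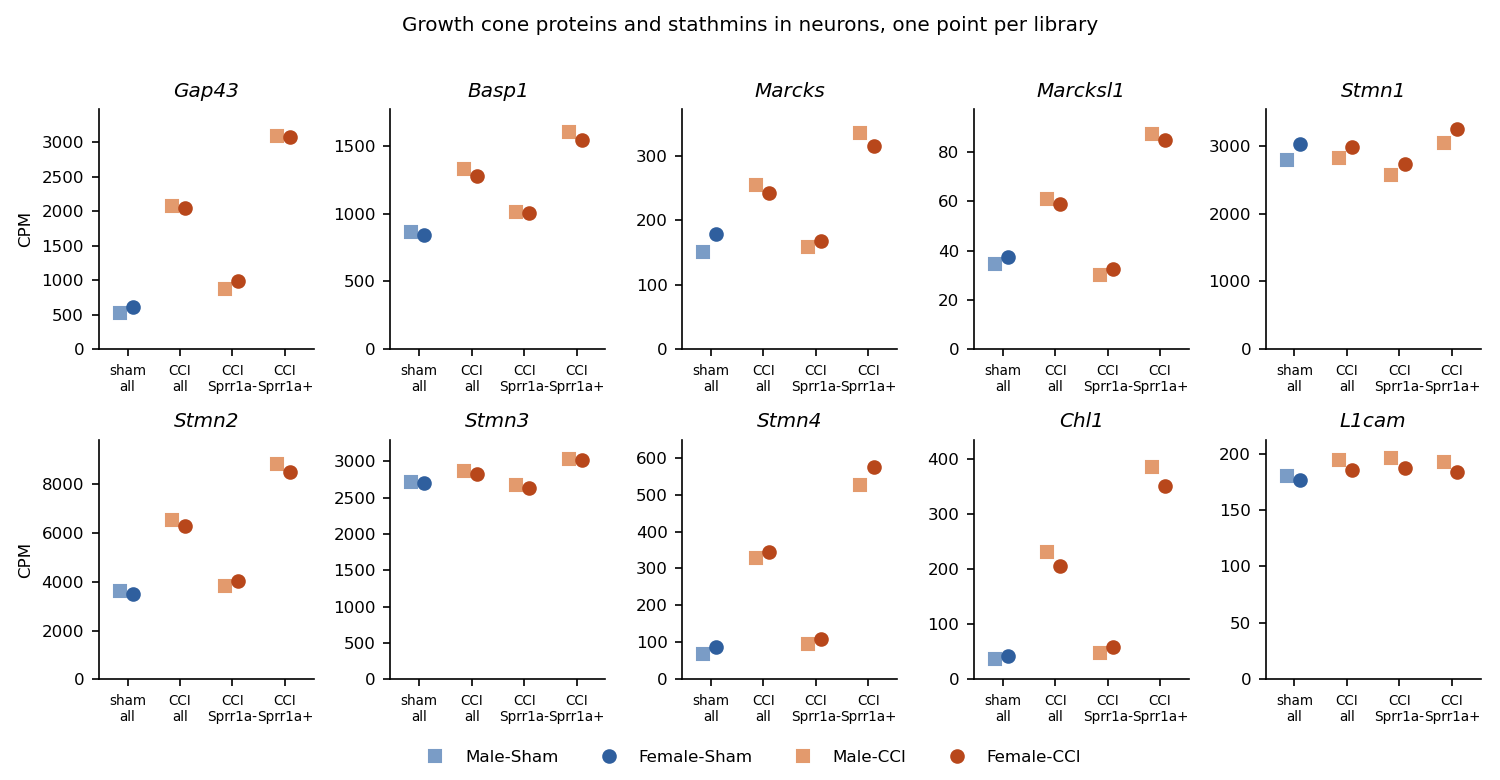
CPM of each gene in neurons, one point per library, for all sham neurons, all CCI neurons, and the *Sprr1a*- and *Sprr1a*+ neurons of CCI. The vertical axes start at 0 and differ between genes; for *Gap43*, *Stmn2*, *Stmn4*, and *Chl1* the *Sprr1a*- neurons of CCI lie closer to sham than to the *Sprr1a*+ neurons, while *L1cam* and *Stmn3* stay within a narrow band.

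Within the CCI libraries, the same 7 genes were higher in *Sprr1a*+ than in *Sprr1a*- neurons, with 45.6% of 16240 genes called in this comparison and 20.9% called higher. Both sums of a library come from the same mice, so the library was a block in the fit. Scaling by total UMIs in place of TMM shifted the median of all genes by -0.12. The comparison shares its CCI neurons with the one over all neurons and is not a second support for it.

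*Gap43* was at 875 and 983 CPM in *Sprr1a*- and 3094 and 3086 CPM in *Sprr1a*+ neurons of Male-CCI and Female-CCI, a log2 difference of 1.91 ± 0.05 (SE, n = 2 libraries, edgeR adjusted p = 1.55e-05). *Basp1* was at 1014 and 1006 against 1601 and 1542 CPM (0.81 ± 0.02), and *Marcks* at 159 and 168 against 336 and 316 CPM (1.17 ± 0.05). *Marcksl1* was at 30.2 and 32.7 against 87.3 and 85.1 CPM, a difference of 1.63 ± 0.04. In all of them the male and the female library gave nearly the same level.

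*Stmn2* was at 3844 and 4029 CPM in *Sprr1a*- and 8826 and 8516 CPM in *Sprr1a*+ neurons (1.31 ± 0.03), and *Stmn4* at 95.4 and 109.9 against 526 and 575 CPM (6.06-fold, edgeR adjusted p = 1.59e-12). *Stmn1* (0.42 ± 0.02) and *Stmn3* (0.36 ± 0.02) were higher by an edgeR adjusted p of 1.90e-08 and 6.20e-08 but by less than 0.5 on the log2 scale. *Chl1* was at 47.8 and 59.4 against 386 and 351 CPM (2.96 ± 0.20, edgeR adjusted p = 0.0231), and with no filter on low counts its edgeR adjusted p was 0.0898, so that 6 genes were called. *L1cam* was at 196 and 187 against 193 and 184 CPM, and its difference of 0.15 ± 0.03 turned to -0.02 under total scaling.

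The 2 sets of neurons differed in class as well as in *Sprr1a*. Of the *Sprr1a*+ neurons, 83.2% in Male-CCI and 85.4% in Female-CCI fell into clusters named CCI-ind-like, which few sham neurons joined, and most others were NP1-, NF1-, or NF2-like. Of the *Sprr1a*- neurons, 3.04% and 3.95% were CCI-ind-like. What the class of origin adds to the difference was not tested. SGC markers summed to 864 and 1139 CPM in *Sprr1a*+ neurons and to 1154 and 1208 CPM in *Sprr1a*- neurons, and their part in the differences was not tested.

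Taken over 7 steps of *Sprr1a* level in CCI neurons, *Gap43* was lower in each of the 3 steps up to 1 than in any of the 4 steps above 1. In Male-CCI it was at 755, 909, and 1032 CPM in neurons with no *Sprr1a* UMI, with a value up to 0.5, and with a value of 0.5 to 1, and at 3619.6, 2988, 2884, and 3099 CPM in the 4 steps above 1. In Female-CCI the values were 803, 965, and 1673 CPM below and 3061, 3172, 2873, and 3105 CPM above. The same held for *Stmn2*, *Stmn4*, *Basp1*, *Marcks*, and *Chl1* in both libraries. It also held for *Stmn3* by a small margin, with at most 2773 and 2738 CPM in the steps up to 1 and at least 2935 and 2897 CPM above. *Chl1* went up further at the top, from 252 and 224 CPM at values of 2 to 2.5 to 399.7 and 377 CPM above 2.5. The steps from 1 to 1.5 held only 25 and 57 neurons and those of 0.5 to 1 held 83 and 203, against 1325 and 1498 above 2.5.

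**Figure D3:**
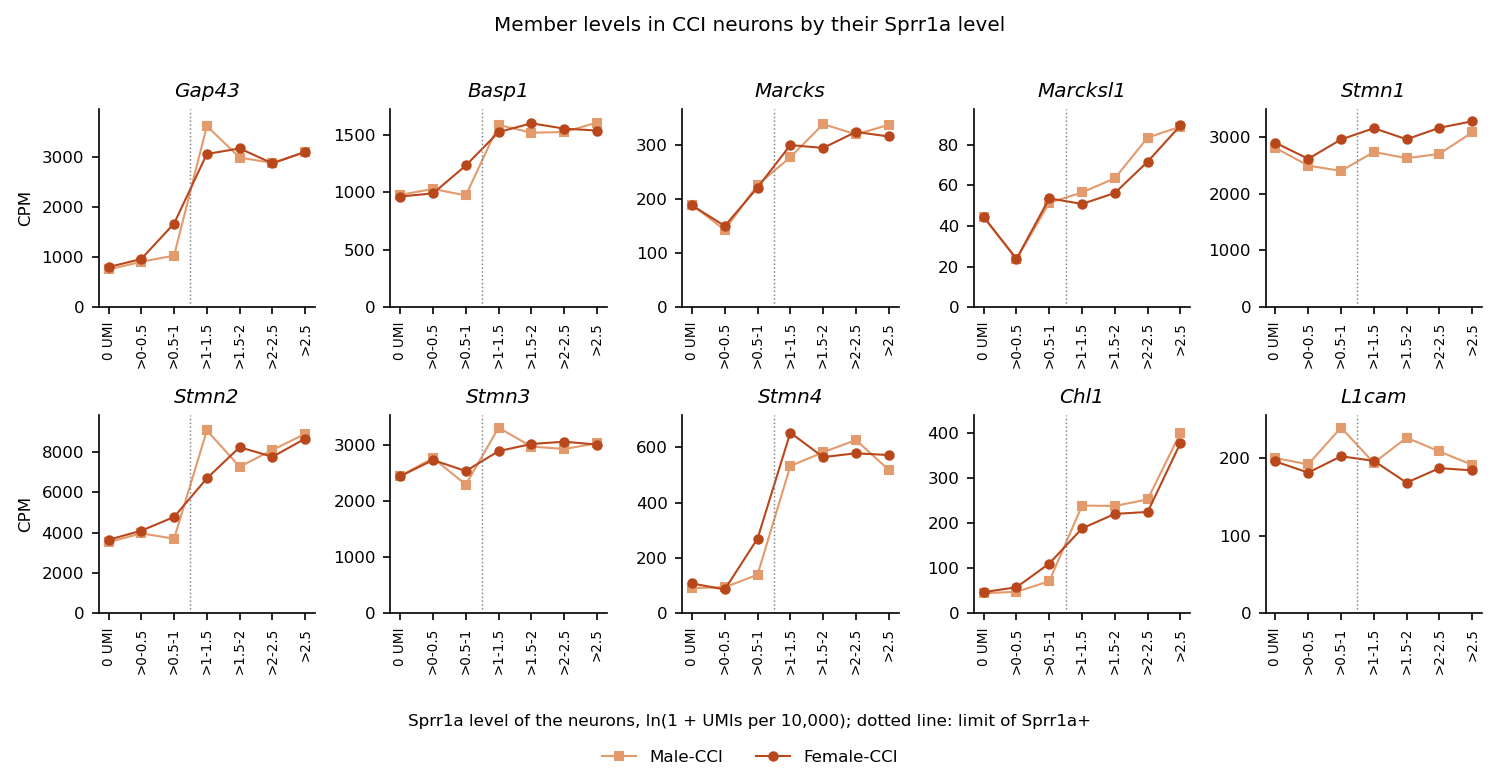
CPM of each gene in CCI neurons grouped by their *Sprr1a* value, natural logarithm of 1 plus UMIs per 10000, one line per CCI library. The dotted line marks the value of 1 that separates *Sprr1a*- from *Sprr1a*+ neurons. *Gap43*, *Basp1*, *Marcks*, *Stmn2*, *Stmn4*, *Chl1*, and by a small margin *Stmn3* are lower in every group left of it than in any group right of it. *Chl1* is highest above 2.5.

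Single *Sprr1a*+ neurons differed from each other. Per cell, *Gap43* ran from 1068 CPM at the 10th to 5338 CPM at the 90th percentile of Male-CCI *Sprr1a*+ neurons, and from 1021 to 5393 CPM in Female-CCI. *Stmn2* was narrower, 5017 to 12787 CPM in Male-CCI. The median neuron had 68.4 and 62.4 CPM of *Marcksl1* when *Sprr1a*+ and no UMI of it when *Sprr1a*-, although at least 10% of *Sprr1a*+ neurons had none either. For *Chl1* the medians were 336 and 307 CPM in *Sprr1a*+ and 28.4 and 33.2 CPM in *Sprr1a*- neurons. The 42 and 144 *Sprr1a*+ neurons of the sham libraries had 2232 and 1959 CPM of *Gap43*, 741 and 702 CPM of *Stmn4*, and 213 and 228 CPM of *Chl1*. For *Stmn4* these are above the level in *Sprr1a*+ neurons of CCI (526 and 575 CPM), for *Gap43* and *Chl1* below it, with no test of these differences.

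The CCI-ind-like neurons formed 5 clusters, called here by a leading gene, *Anxa1*, *Wfdc3*, *Crh*, *Ly6a*, and *Prss12*, and the 10 genes were not even over them. *Gap43* in Male-CCI and Female-CCI was 5369 and 5182 CPM in the *Ly6a* cluster and 4445 and 4312 CPM in the *Wfdc3* cluster, but 2032 and 1934 CPM in the *Anxa1* cluster and 1358 and 1419 CPM in the *Crh* cluster. The *Prss12* cluster lay between, at 3212 and 3204 CPM. Within each cluster the sexes differed by far less than the clusters did. These clusters come from the same cells, so the differences are a description.

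*Marcksl1* was at 212 and 198 CPM in the *Ly6a* cluster and 71.3 and 54.5 CPM in the *Anxa1* cluster. *Stmn2* was highest in the *Ly6a* (11297 and 11087 CPM) and *Prss12* clusters (11034 and 10884 CPM), and lowest in the *Crh* cluster (6604 and 6698 CPM). *Stmn4* did not follow *Stmn2*: the *Prss12* cluster, among the highest in *Stmn2*, was with the *Crh* cluster the lowest in *Stmn4* (367 and 399 CPM), and the *Ly6a* cluster the most (665 and 717 CPM). *Chl1* was highest in the *Wfdc3* cluster (544 and 481 CPM) and lowest in the *Crh* cluster (221 and 194 CPM). *Marcks* had its highest level, 417 and 392 CPM, in the *Crh* cluster, where *Gap43*, *Stmn2*, and *Chl1* were lowest. *Basp1* ran from 1405 and 1319 CPM in the *Crh* to 2156 and 2027 CPM in the *Ly6a* cluster.

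**Figure D4:**
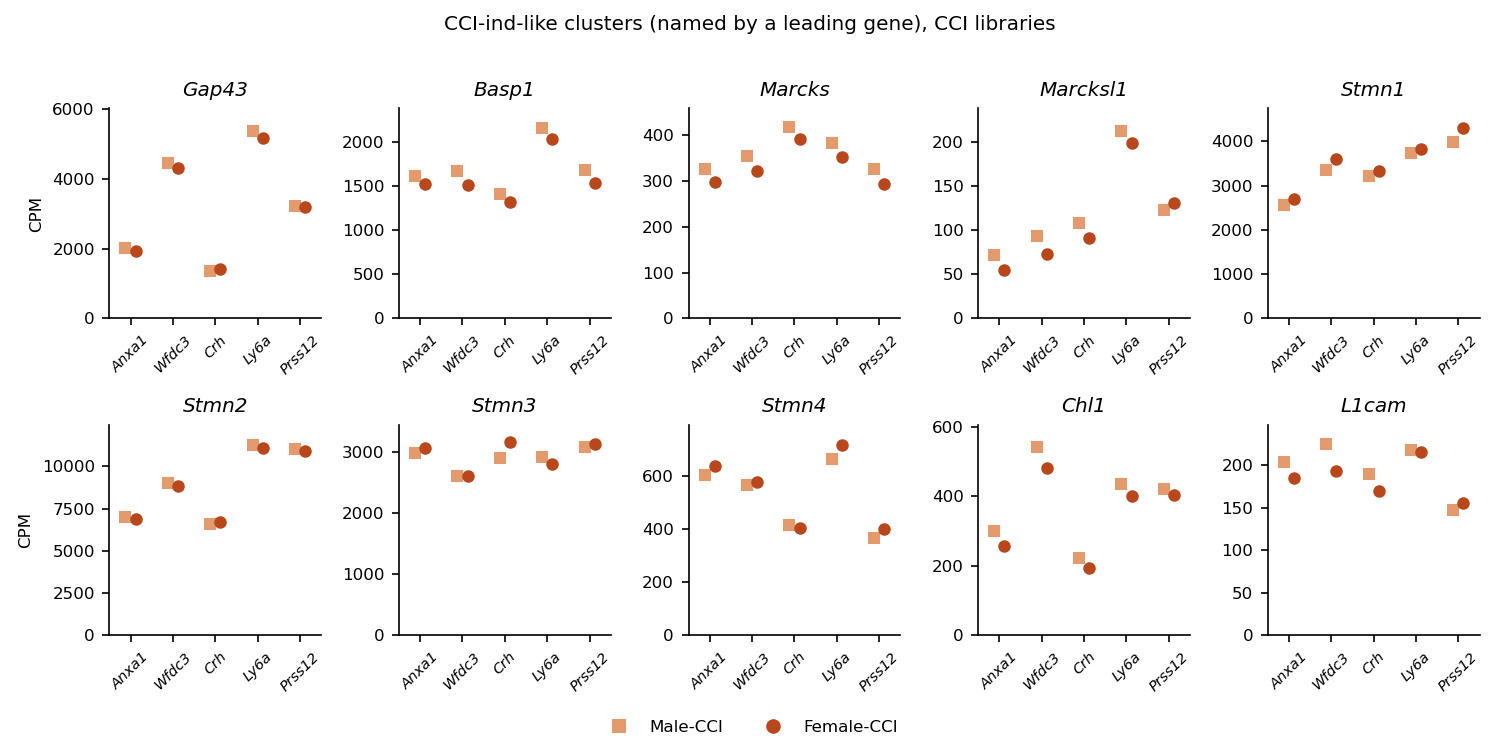
CPM of each gene in the 5 CCI-ind-like clusters of the CCI libraries, one point per library. The vertical axes start at 0 and differ between genes; the *Ly6a* cluster is highest in *Gap43*, *Basp1*, *Marcksl1*, and *Stmn4*, the *Wfdc3* cluster in *Chl1*, and the *Crh* cluster in *Marcks*.

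*Sprr1a*- neurons of CCI ganglia, which the study calls uninjured, had 1 of the 10 genes called against sham. Over all classes but CCI-ind-like, this was *Gap43*, where 3.48% of 16340 genes were. It was at 501 and 559 CPM in sham and 787 and 886 CPM in CCI (log2 fold change 0.64 ± 0.08, edgeR adjusted p = 0.00997). When neurons with any *Sprr1a* UMI were set apart, its change was 0.45 and no longer passed 0.5, and *Stmn4* (0.57) was called in its place. *Basp1* (0.21 ± 0.04, edgeR adjusted p = 0.0262) and *Marcksl1* (-0.25 ± 0.05, edgeR adjusted p = 0.0271) differed by less than 0.5. *Stmn4* was at 55.1 and 65.5 CPM in sham and 76.5 and 87.2 CPM in CCI (0.42 ± 0.11, edgeR adjusted p = 0.0597), and *Chl1* at 33.8 and 37.3 CPM in sham and 44.1 and 54.9 CPM in CCI (0.45 ± 0.12, edgeR adjusted p = 0.0696), neither past the test. Without Female-Sham, *Stmn4* was called beside *Gap43* (0.55), and without Male-CCI, *Chl1* was (0.60).

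By class, 98 of the 100 pairs of gene and class could be tested, since *Marcksl1* was too low in NP1- and NF1-like neurons, and 10 were called, 8 higher and 2 lower in CCI. The share of all genes called was 3.97% in NP1-like, 4.46% in NP2-like, 2.69% in NP3-like, 5.31% in PEP1-like, 4.54% in PEP2-like, 3.59% in PEP3/4-like, 3.24% in PEP5-like, 1.11% in NF1-like, 1.71% in NF2-like, and 1.71% in cLTMR-like neurons. The smallest library gave 31 NP1-like and 43 NF2-like *Sprr1a*- neurons. The number of calls was 5 without Female-CCI, 16 without Male-CCI, and 17 without Female-Sham.

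*Gap43* had a positive change in 10 of 10 classes, from 0.37 to 2.42, with an edgeR adjusted p below 0.05 in 8. It was called in NP2-like (37.3 and 39.3 CPM in sham, 53.5 and 62.6 in CCI, 0.58 ± 0.08), PEP5-like (287 and 296 CPM in sham, 456 and 509 in CCI, 0.70 ± 0.08), NF2-like (1614 and 1595 CPM in sham, 2075 and 2600.4 in CCI, 0.60 ± 0.11), and cLTMR-like neurons (8.62 and 7.94 CPM in sham, 15.8 and 24.1 in CCI, 1.25 ± 0.17). In PEP1-, PEP2-, and PEP3/4-like neurons, where its sham level is high, the change was 0.41, 0.37, and 0.38, below the limit of size. Without Female-CCI the changes were 0.46 in NP2-like, 0.41 in NF2-like, and 0.89 in cLTMR-like neurons, the last with an edgeR adjusted p of 0.0505, so that of these 4 calls the one in PEP5-like neurons held. With doublets kept, the change in cLTMR-like neurons was 0.17 and that in NP2-like neurons was 0.67 with an edgeR adjusted p of 0.0832.

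*Stmn4* was called higher in NP2-like neurons, at 1.63 and 1.98 CPM in sham and 6.43 and 7.12 CPM in CCI (1.88 ± 0.20) and in cLTMR-like neurons, at 1.68 and 2.75 CPM in sham and 7.29 and 5.44 CPM in CCI (1.42 ± 0.27), 2 classes that had almost none in sham. *Chl1* was called higher in NP3-like (1.44 and 1.90 to 4.13 and 6.51 CPM, 1.58 ± 0.35) and PEP5-like neurons (16.0 and 10.8 to 23.1 and 24.7 CPM, 0.83 ± 0.17). These levels are of few UMIs: the call of *Stmn4* in cLTMR-like neurons was lost without either CCI library (edgeR adjusted p = 0.0917 and 0.0854), and that of *Chl1* in NP3-like neurons without Male-Sham, Female-Sham, or Female-CCI (edgeR adjusted p = 0.109, 0.0699, and 0.0913). The call of *Chl1* in PEP5-like neurons was lost without Female-CCI (edgeR adjusted p = 0.0614). With doublets kept, both calls in NP3- and cLTMR-like neurons were also lost, and so they were when neurons with any *Sprr1a* UMI were set apart (edgeR adjusted p = 0.419 and 0.206). The call of *Stmn4* in NP2-like neurons held under each of these settings.

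These low levels lie beside much RNA of injured neurons in the CCI libraries. At least 1 *Sprr1a* UMI was found in 3.44% and 6.60% of sham neurons and in 83.4% and 80.1% of CCI neurons, more than the 52.1% and 49.2% that were *Sprr1a*+. Over all CCI neurons the levels were 329 and 344 CPM of *Stmn4*, 231 and 206 CPM of *Chl1*, and 2076 and 2043 CPM of *Gap43*, against which the gains of *Stmn4* in NP2- and cLTMR-like, of *Chl1* in NP3-like, and of *Gap43* in cLTMR-like neurons are small. SGC-like cells, which are not neurons, had 2.65 and 5.63 CPM of *Stmn4* in sham and 11.8 and 45.9 CPM in CCI, while their *Gap43* was at 28.2 and 26.7 CPM in sham and 94.1 and 300.1 CPM in CCI. The part of free RNA in these 4 calls was not tested.

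*Marcksl1* was the only gene of the 10 called lower. In PEP1-like neurons it went from 30.1 and 29.9 CPM in sham to 14.4 and 21.2 CPM in CCI (-0.73 ± 0.13, edgeR adjusted p = 0.00709), and in PEP3/4-like neurons from 114 and 95.6 to 76.4 and 72.4 CPM (-0.50 ± 0.07, edgeR adjusted p = 0.00146). Both lie near the limits: the change in PEP3/4-like neurons was -0.40 without Male-Sham, -0.46 without Female-CCI, and -0.49 under total scaling, and that in PEP1-like neurons was -0.49 without Male-CCI and had an edgeR adjusted p of 0.0552 without Female-Sham. With any *Sprr1a* UMI as the limit the change was -0.35 in PEP3/4-like and -0.26 in PEP1-like neurons, and neither was called. In PEP2-like neurons it was -0.38 ± 0.08 (edgeR adjusted p = 0.00121). The summed SGC markers in the PEP1-like *Sprr1a*- neurons were 1465 and 1444 CPM in sham and 472 and 630.2 CPM in CCI, and in the PEP3/4-like ones 2624 and 2936 CPM in sham and 2053 and 2216 CPM in CCI. SGC-like cells had 93.5, 111, 148, and 107 CPM of *Marcksl1*, more than PEP1-like neurons. A PEP1-like cluster with over 1000 CPM of *Fabp7* held 99 and 199 sham but 12 and 31 CCI neurons, and without the glia-rich clusters the change of *Marcksl1* was -0.57 (edgeR adjusted p = 0.0174) in PEP1-like and -0.57 (0.00236) in PEP3/4-like neurons. The part of the remaining glial RNA was not tested. *Marcks* had differences of the same sign in PEP2-like (-0.25 ± 0.08) and PEP3/4-like neurons (-0.26 ± 0.07), and *Stmn1* in PEP1-like (-0.26 ± 0.06), PEP2-like (-0.41 ± 0.07), and PEP3/4-like neurons (-0.26 ± 0.06), all with an edgeR adjusted p below 0.05 and below the limit of size. *Stmn1* was at 4325 and 4109.9 CPM in sham and 3190.1 and 3137 CPM in CCI PEP2-like neurons, without overlap.

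The change of *Sprr1a*- neurons differed between classes for 5 of the 10 genes by an interaction test, at which 12.1% of 14942 genes passed. They were *Marcks* (edgeR adjusted p = 0.0261), *Stmn1* (0.0258), *Stmn2* (0.0418), *Stmn4* (0.0155), and *L1cam* (0.0143). Of these, *Stmn4* alone had a class change past both limits. None of the 5 passed in every fit with 1 library left out: without Male-Sham *Stmn4* passed, without Female-Sham *Stmn4* and *Marcks*, without Male-CCI *Stmn1* and *Stmn2*, and without Female-CCI *Stmn1*, *Stmn2*, and *L1cam*. With NP1-like neurons left out, *Stmn1*, *Stmn2*, *Stmn4*, and *L1cam* passed and *Marcks* did not (edgeR adjusted p = 0.133). For *Gap43* the interaction lay just outside the limit (0.0515, and 0.0534 without NP1-like neurons). Its changes are thus not shown to differ between classes, nor shown to be alike. For genes outside these 5, *Gap43* among them, the outcome also moved with the library left out. The sham libraries of NP1-like neurons stood apart, with 107 and 489 CPM of *Gap43* and 4.93 and 79.8 CPM of *Stmn4*.

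**Figure D5:**
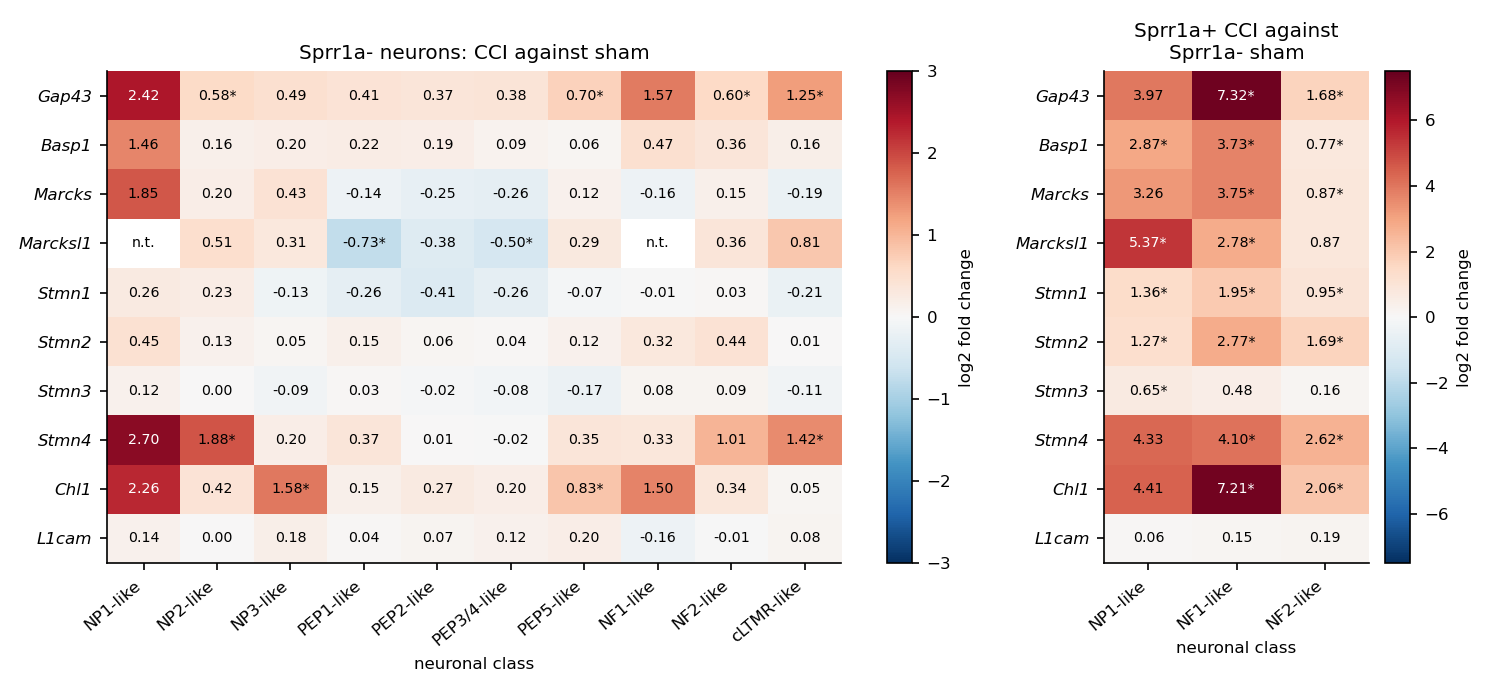
Log2 fold change of each gene by neuronal class, left for *Sprr1a*- neurons (CCI against sham) and right for *Sprr1a*+ neurons of CCI, set against the *Sprr1a*- neurons that sham ganglia held, from 2 libraries per surgery. An asterisk marks an adjusted p below 0.05 with an absolute change above 0.5, n.t. a pair too low to test, and the 2 colour scales differ; the row of *Gap43* is positive in every class on the left and reaches 7.32 in NF1-like neurons on the right.

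*Sprr1a*+ neurons that clustering placed in one of these classes gave much larger changes. NP1-, NF1-, and NF2-like neurons had at least 10 *Sprr1a*+ cells in each CCI library and were compared with *Sprr1a*- neurons of their class in sham. Of 30 pairs of gene and class, 20 were called, all higher, beside 41.6% of genes called in NP1-like (21.1% higher), 45% in NF1-like (21.4% higher), and 44.1% in NF2-like neurons (21.3% higher). *Sprr1a* chose the neurons and is not read here. Total scaling shifted the median of all genes in NF1-like neurons to -0.34 and in NF2-like neurons to -0.22. Changes are read relative to those shifts. At the resolution used (0.8), PEP5-like neurons had only 5 and 7 *Sprr1a*+ cells in Male-CCI and Female-CCI and were not compared. The study lists that class among those that kept injured neurons. The *Prss12* cluster was named CCI-ind-like on 3 markers and held 147 and 154 CCI neurons. At resolution 0.4, a cluster with *Prss12* among its leading genes was named PEP5-like and held 185 and 207. The name given to such neurons thus depends on the resolution.

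NF1-like neurons, which had next to no *Gap43* in sham, had the largest fold changes of *Gap43* and *Chl1*. *Gap43* was at 16.2 and 22.7 CPM in sham and 2453 and 2516 CPM in *Sprr1a*+ neurons of CCI, a log2 fold change of 7.32 ± 0.15 (edgeR adjusted p = 2.38e-12), and *Chl1* was at 2.09 and 2.33 CPM in sham and 244 and 289.8 CPM in CCI (7.21 ± 0.14). *Stmn4* rose from 15.5 and 14.8 to 200.4 and 220.1 CPM (4.10 ± 0.11), and *Stmn2* from 2281 and 2323 to 12834 and 12441 CPM (2.77 ± 0.08). *Marcks* (3.75 ± 0.12), *Basp1* (3.73 ± 0.11), and *Stmn1* (1.95 ± 0.12) rose as well. *Marcksl1* rose from 0.309 and 1.07 to 2.00 and 7.46 CPM (2.78 ± 0.74), a call lost without Female-CCI (edgeR adjusted p = 0.0892). *Stmn3* and *L1cam* were not called, at 0.48 and 0.15, and the latter turned to -0.16 under total scaling.

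NF1-like neurons were made up of 2 clusters at the resolution used, and the split is a description that moves with it: the *Pvalb*-led cluster held 33 and 23 CCI neurons at resolution 0.8 and 87 and 67 at 1.2. At 0.8, in the cluster led by *Ntng1*, *Gap43* over all its cells was at 20.9 and 27.3 CPM in sham and 1495 and 1163 CPM in CCI. In the cluster led by *Pvalb*, a calcium-binding protein of proprioceptors, it was at 6.14 and 8.12 CPM in sham and 19.4 and 79.4 CPM in CCI. *Stmn2* was at 8761 and 7299 CPM in the first and 2617 and 2669 CPM in the second cluster of CCI.

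In NF2-like neurons, the class with the most *Gap43* in sham, it rose from 1614 and 1595 to 4322 and 4453 CPM (1.68 ± 0.08). *Stmn4* (2.62 ± 0.09), *Chl1* (2.06 ± 0.09), *Stmn2* (1.69 ± 0.09), *Stmn1* (0.95 ± 0.08), *Marcks* (0.87 ± 0.09), and *Basp1* (0.77 ± 0.09) rose, and *Stmn2* reached 11449 and 10389.7 CPM. *Marcksl1* was at 26.3 and 11.5 CPM in sham and 16.3 and 46.5 CPM in CCI (0.87 ± 0.82), with overlapping groups. *Stmn3* was at 0.16 and *L1cam* at 0.19, and both turned negative under total scaling (-0.07 and -0.04). The NF2-like cluster, led by *Sema5a*, held 77 and 94 neurons in sham and 130 and 154 in CCI. With injury genes left out of clustering, an NF2-like cluster led by *Sema5a* held 92 and 127 CCI neurons. A CCI-ind-like cluster with *Npy* among its leading genes then held 143 and 166. What this shift in membership adds to the changes was not tested.

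In NP1-like neurons, named after the itch-related class that expresses *Nppb* and *Sst*, 5 genes were called. *Marcksl1* rose from 0.778 and 3.58 CPM in sham to a mean of 78.8 CPM in CCI (5.37 ± 0.24), *Basp1* from 205 and 304 to 1831 and 1753 CPM (2.87 ± 0.25), *Stmn1* from 1416 and 1466 to 3416 and 3666 CPM (1.36 ± 0.09), *Stmn2* by 1.27 ± 0.09, and *Stmn3* by 0.65 ± 0.09. The sham levels of *Marcksl1* stood apart and rested on few UMIs, in sums of 3853998 and 2794851 UMIs over all genes. The call of *Basp1* was lost without either CCI library (edgeR adjusted p = 0.111 and 0.106). *Gap43* was at 107 and 489 CPM in sham and 4514 and 4453 CPM in CCI, *Stmn4* at 4.93 and 79.8 CPM in sham and 748 and 778 CPM in CCI, and *Chl1* at 8.04 and 48.7 CPM in sham and 559 and 521 CPM in CCI. Their groups did not overlap, but the sham libraries stood apart and the edgeR adjusted p was 0.103, 0.129, and 0.0679. Fits without Male-Sham or without Female-Sham cannot decide this, because they leave out the spread between the sham libraries. With DESeq2 these 3 genes and *Marcks* were called.

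The NP1-like class was held by different clusters in the 2 surgeries. The cluster led by *Sst* and *Nppb* held 82 and 63 of its neurons in sham and 26 and 25 in CCI, while a cluster led by *Cd207* and *Wfdc3* held 6 and 24 in sham and 103 and 123 in CCI. The *Cd207* cluster passed on 6 NP1 markers and also on 8 CCI-ind markers, and took the name with the higher marker score. In the *Cd207* cluster, *Gap43* was at 3062 and 3533 CPM in sham and 4485 and 4460.4 CPM in CCI, and in the *Sst* cluster at 107 and 130.0 CPM in sham and 498 and 800.3 CPM in CCI.

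The change in *Sprr1a*+ neurons differed among these 3 classes for 7 of the 10 genes, where 41% of 13090 genes passed the interaction test. *Stmn2* (edgeR adjusted p = 9.57e-11), *Basp1* (1.31e-08), *Stmn1* (5.92e-06), *Stmn3* (0.00616), *Gap43* (0.0155), *Chl1* (0.0204), and *Marcks* (0.0258) passed, and *Marcksl1* (0.104), *Stmn4* (0.361), and *L1cam* (0.741) did not. Without Male-CCI or without Female-CCI only *Stmn1*, *Stmn2*, and *Stmn3* passed, and without Male-Sham *Stmn3* did not, so that *Stmn1* and *Stmn2* passed with any 1 library left out. Between NF1- and NF2-like neurons alone, with the NP1-like class left out, 8 genes differed, *Stmn4* among them, beside 2635 of 12537 genes tested. In that pair the class that started lower had the larger fold change of *Gap43*, but not the higher level. The levels in injured neurons were 2453 and 2516 CPM in NF1-like against 4322 and 4453 CPM in NF2-like neurons.

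Genes that work with these proteins were followed as 4 lists. Of 22 genes of the growth cone cytoskeleton, 8 rose and none fell over all neurons after CCI, where 15.2% of all genes were called higher and 12.7% lower, and the median log2 fold change was 0.39. In *Sprr1a*+ against *Sprr1a*- neurons 13 were higher and 1 lower, beside 20.9% and 24.7% of all genes. The largest increases over all neurons were those of *Fscn1* (3.63-fold), which bundles actin in filopodia, *Dcx* (2.46-fold), which binds microtubules, and *Enah* (2.30-fold), an actin regulator of the Ena/VASP family, with SEs of 0.12, 0.09, and 0.06 on the log2 scale. Of 15 genes for protein kinase C, calmodulin, and calcineurin, which act on GAP43 and MARCKS, none rose and 5 fell over all neurons, and 9 were lower in *Sprr1a*+ neurons, beside the same shares of 12.7% and 24.7% of all genes called lower. Among them *Prkcq* fell by 1.11 (SE 0.13), *Prkca* by 0.72 (SE 0.07), and *Prkch* by 0.61 (SE 0.10) on the log2 scale.

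Of 15 relatives and partners of the L1 family, 4 rose and 2 fell over all neurons, beside 27.8% of all genes called in either direction. *Ank3* (0.79 ± 0.05), the ankyrin of the axon initial segment, *Itgb1* (0.73 ± 0.06), the integrin beta 1 chain, and *Ncam1* (0.64 ± 0.05) rose, while *Ank1* (-0.78 ± 0.05) and *Cntn6* (-0.76 ± 0.17) fell. The call of *Cntn6*, at a mean of 1.27 CPM in sham and 0.719 CPM in CCI, was lost without Female-CCI. None of 10 genes for kinases of stathmins and for palmitoylation enzymes was called over all neurons, and 1 was higher and 2 lower in *Sprr1a*+ neurons, where 45.6% of all genes were called. In *Sprr1a*- neurons of CCI over all classes, none of the 62 listed genes was called, beside 3.48% of all genes, and the 11 genes named here were between -0.19 and 0.19, apart from *Prkcq* (-0.49 ± 0.13, edgeR adjusted p = 0.0554).

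In *Sprr1a*+ neurons placed in a class, the growth cone list had 11 of 22 genes higher and 1 lower in NP1-like, 11 of 21 higher and 1 lower in NF1-like, and 8 of 21 higher and 4 lower in NF2-like neurons. Over all genes, 21.1%, 21.4%, and 21.3% were called higher in these classes and 20.5%, 23.6%, and 22.8% lower. In the protein kinase C list no gene was higher in any of the 3 classes, and 4 of 11, 5 of 13, and 10 of 14 were lower. The L1 list was mixed, with 8 higher and 1 lower of 13 in NP1-like, 4 higher and 7 lower of 15 in NF1-like, and 5 higher and 6 lower of 15 in NF2-like neurons.

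Over 48 sums of class and library, the genes most like each of the 10 in log2(CPM + 1) were found among 6184 genes with a mean of at least 20 CPM. *Gap43* and *Stmn4* were each other's nearest (Pearson r = 0.892). *Gap43* was next most like *Rock2* (0.864) and *S100a11* (0.862), *Stmn4* next most like *Gadd45g* (0.883) and *Micall1* (0.867), and *Chl1* most like *Csf1* (0.823), *Phlda1* (0.823), and *Rab35* (0.821). The nearest gene was *Il4ra* for *Basp1* (0.848), *Hmgn3* for *Marcks* (0.885), *Grb10* for *Marcksl1* (0.905), *Vim* for *Stmn1* (0.876), *Rhoq* for *Stmn2* (0.907), *Gcsh* for *Stmn3* (0.827), and *Wipf1* for *L1cam* (0.878). Among the 10, *Marcks* and *Marcksl1* were also close (0.853), and *Stmn1* and *Stmn3* went opposite ways over these sums (-0.48). Across single neurons within a library, *Stmn1* and *Stmn3* were weakly positive, with a Spearman correlation of 0.152, 0.161, 0.223, and 0.249. The sums share 4 libraries and the injury, so these values describe a pattern, and no test was made.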

How the data were processed

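UMI counts per gene and cell were deposited by the authors for 4 libraries (10x Genomics 3' v3, mm10, 31053 genes). They are not normalized. The matrix headers name Cell Ranger 3.0.2 and the submitters' processing notes 2.1.1. Per library, 601 to 1381 barcodes with the highest Scrublet scores were removed as doublets, in the numbers the study gives (Scrublet alone called 0 to 121), then cells with fewer than 1500 genes or over 10% mitochondrial UMIs. Clusters were made in Seurat 5.3.0 from 3000 variable genes without the 10 genes (resolution 0.8), and a name needed 3 markers. Counts were summed per library, class, and *Sprr1a* status, where at least 10 cells per library were present, and tested in edgeR 4.0.16 (R 4.3.3; robust quasi-likelihood, TMM, filterByExpr), on 2 libraries per surgery. Without a block, the p-values weigh a change against the spread between these libraries. Where the library was a block, they weigh it against the spread left once library differences are taken out. In each fit the estimate of spread also draws on other genes.

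The genes and lists were chosen with earlier results of these data known. The genes named were the 10, the 3 largest rises and falls called in each list, and the nearest 1 or 3 genes by correlation. Alternatives were DESeq2 1.42.0, other filters, resolutions, *Sprr1a* limits, doublets kept, and each library left out. Total UMI scaling, shared barcodes, glia-rich clusters, and the interaction alternatives were chosen after seeing the data. The fits were tested on simulated data. UMI floors and shares cover counting error only.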

Additional observations from a re-analysis of the deposited data

Results flagged for a closer look

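The change in *Sprr1a*- neurons differed between the 10 classes by the edgeR interaction test for *Marcks* (adjusted p = 0.0261), *Stmn1* (0.0258), *Stmn2* (0.0418), *Stmn4* (0.0155), and *L1cam* (0.0143). *Stmn1* went from -0.41 ± 0.07 (adjusted p = 8.75e-05) in PEP2-like to 0.26 ± 0.16 (0.412) in NP1-like neurons, and *Stmn4* from -0.02 ± 0.06 (0.861) in PEP3/4-like to 2.70 ± 1.46 (0.504) in NP1-like neurons, where neither change passed by edgeR. None of these 5 interactions passed in every fit with 1 library left out. The change in *Sprr1a*+ neurons differed between NP1-, NF1-, and NF2-like neurons for *Gap43* (edgeR adjusted p = 0.0155), *Basp1* (1.31e-08), *Marcks* (0.0258), *Stmn1* (5.92e-06), *Stmn2* (9.57e-11), *Stmn3* (0.00616), and *Chl1* (0.0204). For *Basp1* the changes were 2.87, 3.73, and 0.77 in this order of classes, and for *Stmn2* 1.27, 2.77, and 1.69.

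SGC-like cells, which enter no comparison above, held 7 of the 10 genes at a higher level in both CCI libraries than in either sham library. The share of all genes with this pattern was not taken, so the count is a description of the 10 only. At the resolution used no immune-like cluster stood apart, while at 1.2 one held 4, 5, 12, and 3 cells, most of them in Male-CCI. The part of such cells in the SGC-like levels was not tested. The means of the CCI libraries were 197 CPM for *Gap43*, 125 CPM for *Basp1*, 763 CPM for *Marcks*, 609 CPM for *Stmn2*, 28.8 CPM for *Stmn4*, 269 CPM for *Chl1*, and 44.5 CPM for *L1cam*. For *Gap43* the 4 libraries had 28.2, 26.7, 94.1, and 300.1 CPM, for *Stmn2* 176, 180.1, 191, and 1027 CPM, and for *Chl1* 163, 119.6, 273, and 266 CPM. The neuronal marker *Tubb3* was at 168, 191, 216, 649 CPM in the same cells, highest in Female-CCI as were *Gap43* and *Stmn2*, and its part in these levels was not tested.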

How the results depend on the processing

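Over all neurons, 5 to 7 of the 10 genes were called under the alternatives and 7 without any 1 library. In *Sprr1a*+ against *Sprr1a*- neurons 6 to 7 were called, and without a CCI library that comparison gives values with no test. For *Sprr1a*- neurons of all classes together, 3 genes were called with doublets kept and 3 with *Sprr1a*+ set at a value above 2, against 1 to 2 without a library. By class, 16 pairs were called with the value above 2, and 5 to 17 without a library, against 10. DESeq2 called 6 pairs and gave no adjusted p for the other 4 of the 10. For *Sprr1a*+ neurons by class, 20 to 25 pairs were called, and 19 to 25 without a library. The interaction of *Sprr1a*- neurons was called for 1 to 4 genes and that of *Sprr1a*+ neurons for 3 to 8 genes without a library. A library left alone in its group was assumed to vary like the others. The cause was not tested.

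Among changes that had not been called, the sign turned for *Stmn1* over all neurons under total UMI scaling (-0.0032), without Male-Sham (-0.014, with 0.11 the highest value without a library), and with each cell weighted alike (-0.078). It turned for *L1cam* in *Sprr1a*+ against *Sprr1a*- neurons under total scaling (-0.024) and with cells weighted alike (-0.026). In *Sprr1a*- neurons together it turned for *Marcks* without Female-Sham (0.063, with -0.18 the lowest without a library), and with any *Sprr1a* UMI as the limit for *Marcks* (0.14), *Marcksl1* (0.24), and *Stmn2* (-0.035). In *Sprr1a*+ neurons it turned in NF1-like neurons for *L1cam* under total scaling (-0.16) and with any UMI (-0.026), and in NF2-like neurons for *Stmn3* (-0.068) and *L1cam* (-0.041) under total scaling.

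Over all genes, calls over all neurons were 4796, and 2849 with cells weighted alike. *Sprr1a*+ against *Sprr1a*- neurons gave 7400, and 4760 with any UMI as the limit. *Sprr1a*- neurons together gave 568, 915 with any UMI, 864 with the replicate block, and 213 to 541 without a library. By class they were 3935, 1791 with DESeq2, and 2155 with any UMI, where NF2-like neurons could not be tested. The interactions gave 1808, and 440 to 1568 without a library, for *Sprr1a*- neurons, and 5361, and 2635 without NP1-like neurons, for *Sprr1a*+ neurons.

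The replicate numbers stand for sex. The male against female deviations of sham and CCI correlated over 10039 genes (r = 0.65, 2 pairs). The labels tie the sham and the CCI library of a sex to no shared litter, batch, or day, and 2 pairs are too few to take the numbers as pairs from the data, so the block is given as an alternative. With sex as a replicate block, 7 genes were called over all neurons, 1 in *Sprr1a*- neurons together, 14 pairs by class, and 20 in *Sprr1a*+ neurons by class, and without the library block 7 were called in *Sprr1a*+ against *Sprr1a*- neurons. Depth limits *Marcksl1*, *Stmn4*, and *Chl1* in classes with few UMIs of them.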
